A study of Capra hircus with 6 samples.

Results

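Of the RNA features counted in goat ear margin fibroblasts, 73 had reads in every fibroblast library and none in any library of the cells obtained after 8 days of chemical induction. They comprised 50 assembled loci and 23 annotated genes, out of 24950 features in the count table, of which 4441 are assembled loci and 20484 are annotated genes. A feature was taken when it had at least 3 counts in each of the 3 libraries of the CK group (fibroblasts, day 0), 0 counts in each of the 3 libraries of the 5i8d group (day 8) and a length of at least 200 bp. The features were thus chosen by their counts in all 6 libraries, so the difference between the groups is given as a description and was not tested on them. Silenced is used below for this pattern of counts only.

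The fibroblasts came from ear tissue of young Guanzhong dairy goats. The 5i8d cells are the same kind of fibroblasts cultured for 8 days on Matrigel-coated plates in medium with Forskolin, TTNPB, VPA, Repsox and Tranylcypromine, a mixture called 5i in the paper and BFRTV in the labels, and the CK cells are those at day 0, before that medium. RNA was depleted of rRNA and made into directional libraries, and the labels list CK1, CK2 and CK3 and the day 8 libraries 1, 2 and 3, here 5i8d1, 5i8d2 and 5i8d3. The study's methods describe CK1, CK2, 5i8d1 and 5i8d2 as biological replicates, and whether these came from separate animals or cultures is not stated in the sources used here.

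Fibroblasts are the connective tissue cells that make and remodel the extracellular matrix. In chemical reprogramming, small molecules that act on signalling pathways and on chromatin enzymes are used to move such cells toward another cell type, here mammary epithelium, without added genes. Loss of transcripts of the starting cell is a usual part of such a change. Long noncoding RNAs are on the whole less abundant than mRNAs and restricted to fewer cell types. An assembled locus, whose ID starts with MSTRG, is a transcribed region built from the reads, whereas an annotated gene, whose ID starts with gene, comes from the reference annotation and may be an mRNA or an annotated lncRNA. The table gives neither names nor positions with these IDs. The roles, the genomic positions and the sequences of the features, and the markers of fibroblasts and epithelial cells, were therefore not analysed here.

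The libraries held between 28162284 counts (CK3) and 37544673 counts (5i8d2), and each 5i8d library was deeper than each CK library. CK3 was less like the other CK libraries (rank correlations over 17757 features of 0.931 and 0.937) than these were like each other (0.996), and 5i8d3 less like 5i8d1 and 5i8d2 (0.926 and 0.948) than these were (0.966). Libraries with the same number deviated together from their group means, with correlations of the deviations of 0.42, 0.55 and 0.67 for numbers 1, 2 and 3. Values are therefore also given without CK3 and 5i8d3. A count of 0 allows up to 3 counts, which is 0.0839 CPM (counts scaled to a library total of 1000000) in 5i8d1, 0.0799 CPM in 5i8d2 and 0.0847 CPM in 5i8d3. This limit covers counting error only. In bulk RNA, fewer cells with a transcript and less of it per cell cannot be told apart.

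Silenced features were a small share of what the fibroblasts expressed, and most of them were assembled loci. Of the 2030 assembled loci with at least 3 counts in each CK library and at least 200 bp, 50 (2.46%) had no count in any 5i8d library. Of the 14367 annotated genes with such counts, 23 (0.16%) had none. The paper's methods assembled new transcripts from the reads and dropped those with low read coverage in every sample. A locus without 5i8d reads could pass such a screen only through the CK libraries, whereas annotated genes come from the reference. The part of this screen in the difference between the classes was not tested. The number of silenced features depended on single 5i8d libraries. Without 5i8d2 the same rule took 80 loci and 55 genes, without 5i8d1 it took 75 and 49, and without 5i8d3 57 and 31. Among the CK libraries, leaving out CK3 changed the number of genes most, to 44, and that of loci to 60. In CK1, CK2, 5i8d1 and 5i8d2 alone the rule took 70 loci and 52 genes. Features of the 25 other annotation records met the count rule in 0 cases. Below 200 bp, 2 annotated genes had the same pattern of counts, of 72 bp with 23, 22 and 48 counts in CK1, CK2 and CK3, and of 74 bp with 9, 8 and 10.

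The most abundant silenced locus was MSTRG.149568, of 829 bp. It had 159 counts in CK1, 100 in CK2, 368 in CK3 and 0 in each of 5i8d1, 5i8d2 and 5i8d3, or an FPKM of 8.23 ± 6.61 (SD, n = 3) in the CK group. CK3 was the highest of its CK libraries. Against a floor of 3 counts in each 5i8d library, on library sizes scaled by TMM, it was at least 96.4-fold lower in the 5i8d group, and at least 48.8-fold lower without CK3. This and the other lower bounds take the mean of the CK libraries as it is, without its spread.

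The next locus in order of the mean CPM over the CK libraries, of 1292 bp, rested on 1 library. It had 16 counts in CK1, 14 in CK2 and 396 in CK3, and its lower bound was 72.8-fold over all libraries and 5.83-fold over the paper's 4. The locus of 2479 bp, the longest of the 50, was more even, with 121, 67 and 99 counts in CK1, CK2 and CK3 and a bound of at least 40.6-fold. The locus of 1820 bp had 74, 47 and 100 counts in the same order. These CK libraries thus lay close together for some of the leading loci and far apart for others.

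The locus of 1445 bp had 91 counts in CK1, 102 in CK2 and 35 in CK3, and was lowest in CK3. The locus of 632 bp had 50, 41 and 91 counts and was highest there. The following 3 loci, of 2021, 1569 and 1384 bp, had between 16 and 66 counts in each CK library. The locus of 1026 bp, the last of the leading 10, again leaned on CK3, with 19, 22 and 72 counts. All of these had 0 counts in every 5i8d library. The other 40 loci had between 3 and 82 counts in a CK library and a mean of at most 1.20 CPM.

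Among the annotated genes, the highest mean CPM belonged to gene25044, of 2644 bp. It had 135 counts in CK1, 149 in CK2, 52 in CK3 and 0 in each 5i8d library, or an FPKM of 1.25 ± 0.485 (SD, n = 3) in the CK group. CK3 was its lowest CK library, unlike for the leading locus. It was at least 44.2-fold lower in the 5i8d group against the same floor, and at least 53.3-fold lower without CK3.

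Most of the other leading genes were also low in CK3. The gene of 1411 bp, the highest per length among the 23 with an FPKM of 1.85 ± 0.993 (SD, n = 3), had 119, 121 and 28 counts in CK1, CK2 and CK3. The gene of 5437 bp had 60, 65 and 25 counts, and the gene of 5102 bp had 57, 48 and 14. For the gene of 3040 bp the counts were 74 in CK1, 70 in CK2 and 7 in CK3. In each of these 4 genes CK1 and CK2 nearly coincided while CK3 was lower. The gene of 1569 bp went the other way, with 30, 32 and 45 counts. The gene of 1343 bp had 41, 34 and 7 counts, that of 693 bp 13, 14 and 14, that of 4088 bp 11, 21 and 6, and that of 1032 bp 4, 15 and 14. The other 13 genes had between 3 and 19 counts in a CK library.

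**Figure D1:**
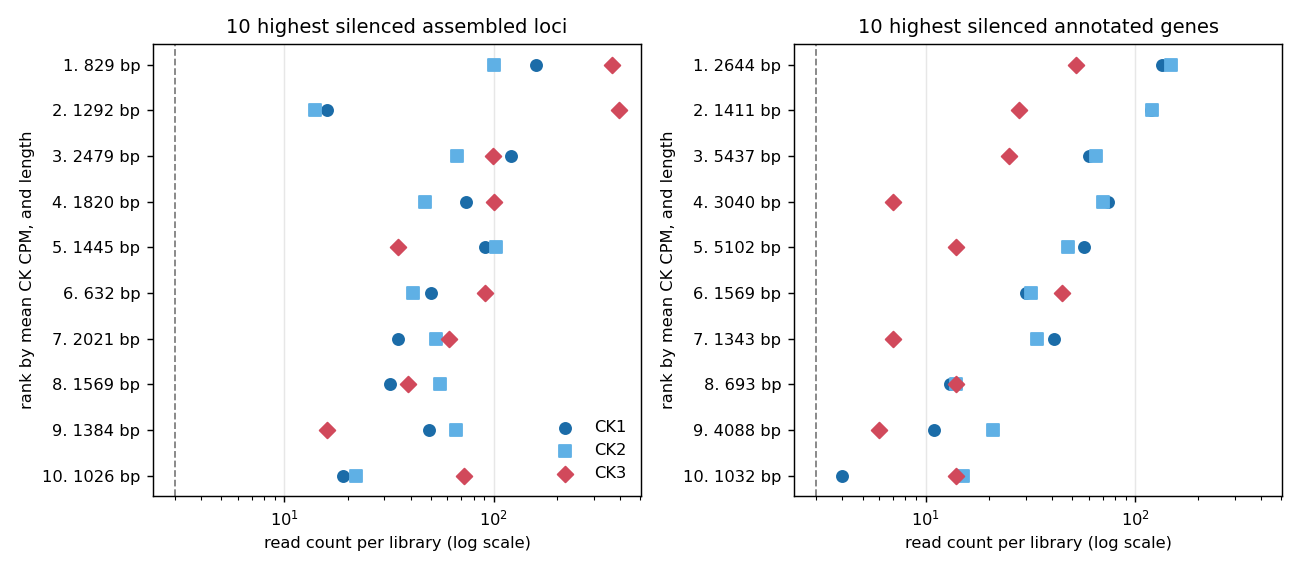
Read counts (x axis, log scale) of the 10 silenced assembled loci and the 10 silenced annotated genes with the highest mean CPM in the CK group (y axis, rank and length), with 1 point for each CK library and a dashed line at the minimum of 3 counts; the counts in all 5i8d libraries were 0 and are not drawn. The locus of 1292 bp lies at 396 counts in CK3 and at 16 and 14 in CK1 and CK2. Most of the genes drawn lie lower in CK3 than in both CK1 and CK2, but those of 1569, 693 and 1032 bp do not.

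Taken over all silenced features, the counts were low. The mean count over the CK libraries had a median of 16.7 for the loci, from 3.67 to 209, and of 10.3 for the genes, from 4.33 to 112. A mean of at least 100 counts was reached by 2 loci and 1 gene. The lower bound of the fold had a median of 7.33 for the loci and 3.98 for the genes, and of 5.46 and 4.68 for the same features in the paper's 4 libraries. It reached 10-fold for 17 of the 50 loci and 7 of the 23 genes, and 30-fold for 4 loci and 2 genes. For the remaining features the bound was under 10-fold, which does not show that the decrease was smaller. The bound takes the floor in each 5i8d library separately, from 0.0799 CPM in 5i8d2 to 0.0847 CPM in 5i8d3. Taken over the 5i8d libraries together, the floor is 0.0276 CPM. A lower floor gives larger bounds, and bounds from this joint floor were not computed. The numbers at 10-fold and 30-fold thus depend on the choice of floor. The numbers at 10-fold and 30-fold used all 6 libraries, and single bounds moved either way in the paper's 4. The locus of 1292 bp, counted at both, fell from 72.8-fold to 5.83-fold. The locus of 1445 bp, counted at 10-fold only, rose from 29.98-fold to 37.4-fold. Together the silenced loci took 34.9 CPM in CK1, 29.4 CPM in CK2 and 76.0 CPM in CK3, and the silenced genes 18.8, 19.4 and 10.2 CPM. The leading 5 loci made up 37.9%, 31.8% and 46.6% of the counts of the loci in CK1, CK2 and CK3, and the leading 5 genes 67.8%, 66.1% and 44.1% of those of the genes.

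The share of silenced features decreased with the level in the fibroblasts. Among the assembled loci it was 6.08% (11 of 181) at a mean of 3 to 10 counts over the CK libraries, 4.28% (24 of 561) at 10 to 30, 2.01% (13 of 648) at 30 to 100 and 0.312% (2 of 640) at 100 counts or more. Among the annotated genes the same ranges gave 1.92% (10 of 520), 0.633% (7 of 1106), 0.331% (5 of 1511) and 0.0089% (1 of 11230). In each range the share was higher among the loci than among the genes. The part of the paper's coverage screen for new transcripts in this difference was not tested. A feature with few counts reaches 0 with a smaller decrease than a feature with many, and the rule uses these counts, so that the order of the ranges was not tested.

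The silenced features were also shorter than the other features of their class. The median length was 624.5 bp for the 50 loci, from 204 to 2479 bp, against 1739 bp for the 2030 loci detected in the CK group. None (0) of the 651 detected loci of 3000 bp or more was silenced, compared with 18 (7.09%) of the 254 loci under 500 bp. Among loci with a mean of 10 to 100 CK counts, 10 of 151 (6.62%) under 500 bp, 14 of 312 (4.49%) from 500 to 1000 bp, 13 of 558 (2.33%) from 1000 to 3000 bp and 0 of 188 of 3000 bp or more were silenced. The order by length thus also held within this range of counts. Inside the range the share of silenced loci also fell with the count, from 4.28% at 10 to 30 to 2.01% at 30 to 100. Length and level were therefore not separated, and the part of each was not tested. For the genes the medians were 1662 bp for the 23 silenced, from 227 to 8924 bp, and 2957 bp for the 14367 detected. At a mean of 10 to 100 CK counts the share of silenced genes showed no such order by length, with 1 of 108 (0.926%), 1 of 356 (0.281%), 6 of 1279 (0.469%) and 4 of 874 (0.458%). Of the silenced genes, 6 were longer than 3000 bp and 0 reached 10 kb.

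**Figure D2:**
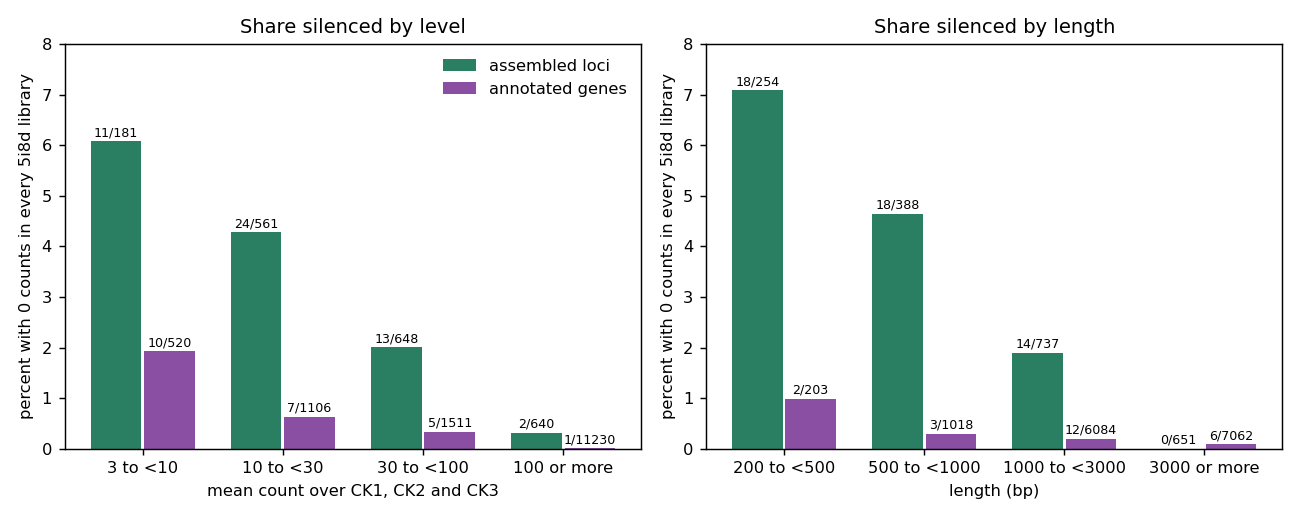
Percent of the features detected in the CK group (at least 3 counts in each CK library) that had 0 counts in every 5i8d library (y axis), by mean CK count (left) and by length (right), for assembled loci and annotated genes, with the numbers silenced and detected above each bar. The bars of the loci fall from 6.08% to 0.312% with the count and from 7.09% to 0 with the length, and the tallest bar of the genes is 1.92%.

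Per length, the silenced loci had a lower median level than all detected loci in CK1 and CK2 but not in CK3, and the silenced genes lay below most detected genes in every CK library. The mean FPKM over the CK libraries had a median of 0.901 for the silenced loci and 0.948 for all detected loci. For the silenced genes it was 0.241, against 6.43 for all detected genes. Of the silenced loci 20 (40.0%) had an FPKM of 1 or more, as had 46.9% of the detected loci, but only 3 silenced genes (13.0%) did, compared with 80.9% of the detected genes. The silenced loci therefore lay above the silenced genes on the FPKM scale, the reverse of the order of both classes as a whole. This also held in CK1 and CK2 alone, where the medians were 0.596 for the silenced loci and 0.294 for the silenced genes. FPKM divides by length the counts that the rule used. The silenced loci were shorter than the silenced genes, with median lengths of 624.5 and 1662 bp. The part of the rule and of length in this order was not tested. By library, the median over the silenced loci was 0.581 in CK1, 0.566 in CK2 and 1.13 in CK3, against 0.787, 0.794 and 1.11 over the detected loci. For the silenced genes the medians were 0.259, 0.271 and 0.150, against 6.72, 6.90 and 4.71 for the detected genes.

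**Figure D3:**
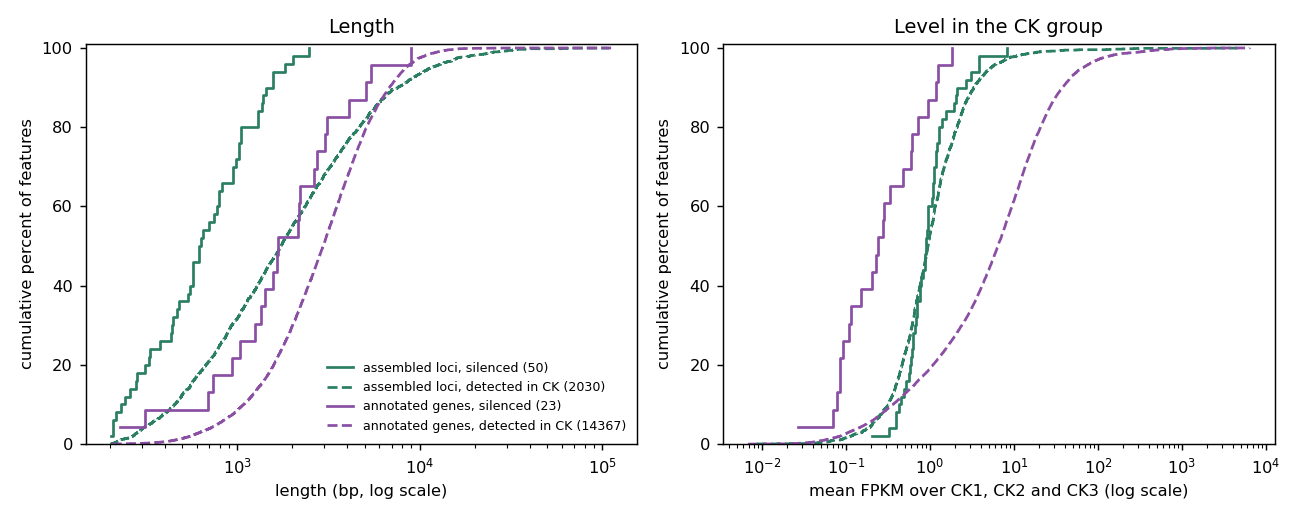
Cumulative percent of features (y axis) by length in bp (left) and by mean FPKM over the CK libraries (right), both on log scales, for silenced features (solid lines) and all features detected in the CK group (dashed lines). The silenced loci lie at shorter lengths than the detected loci, with medians of 624.5 and 1739 bp; their mean FPKM has a median of 0.901 against 0.948, a mean that includes CK3, and the silenced genes lie below the detected genes, with medians of 0.241 and 6.43.

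The classes differed in how CK3 stood to the other fibroblast libraries. Of the 50 silenced loci, 38 (76.0%) had a higher CPM in CK3 than the mean of CK1 and CK2, and 35 (70.0%) were highest in CK3, as were 63.3% of the detected loci. Of the 23 silenced genes, 16 (69.6%) were lower in CK3 than that mean and 12 (52.2%) were lowest in CK3, as were 55.9% of the detected genes. The median ratio of CK3 to the mean of CK1 and CK2 was 1.85 for the silenced loci and 0.498 for the silenced genes. All detected features showed the same directions with smaller sizes, with median ratios of 1.39 for the loci and 0.837 for the genes, and 69.3% of the detected loci were higher and 60.8% of the detected genes lower in CK3. A difference of more than 4-fold upward in CK3 was found for 11 silenced loci (22.0%), against 5.91% of the detected loci, and for 0 silenced genes. More than 4-fold lower in CK3 were 0 silenced loci, against 2.96% of the detected loci, and 2 silenced genes (8.70%), against 9.33% of the detected genes. CK1 and CK2 were within 2-fold of each other for 40 loci (80.0%) and 18 genes (78.3%), compared with 88.5% and 98.1% of the detected loci and genes. The part of low counts in these shares was not tested. With library sizes scaled by TMM, an alternative added after the values were seen, the median log2 difference of CK3 over all detected features was 0.18 higher. Relative to CK1 and CK2 the median ratios were then 2.09 for the silenced loci and 0.564 for the silenced genes. For the detected loci and genes they were 1.57 and 0.947. Higher in CK3 were 39 silenced loci (78.0%), against 73.7% of the detected loci. Lower in CK3 were 14 silenced genes (60.9%), against 52.9% of the detected genes.

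**Figure D4:**
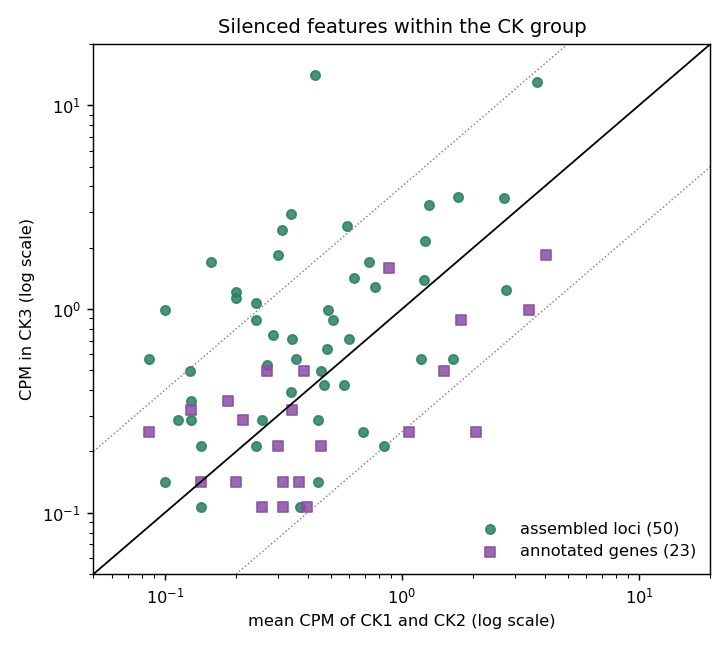
CPM in CK3 (y axis) against the mean CPM of CK1 and CK2 (x axis), both on log scales, for the 50 silenced loci (circles) and the 23 silenced genes (squares), with a solid line at equal values and dotted lines at 4-fold differences. Of the loci, 38 lie above the solid line and 11 above the upper dotted line, and of the genes 16 lie below the solid line.

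To read the pattern in libraries that had no part in the choice, features were taken in CK1, CK2, 5i8d1 and 5i8d2 alone and then looked up in CK3 and 5i8d3. Of the 70 loci taken in this way, 60 (85.7%) had 0 counts in 5i8d3. Among all 2377 loci with at least 3 counts in CK1 and CK2 the share was 17.4%, and among the 2307 that were not taken it was 15.3%. The other 10 loci had between 2 and 28 counts in 5i8d3, with a median of 6. In CK3, 57 of the 70 (81.4%) had at least 3 counts and 10 (14.3%) had none, and among the loci not taken 85.5% had at least 3 counts. Silence in 5i8d1 and 5i8d2 was thus mostly followed by silence in 5i8d3, and expression in CK1 and CK2 by expression in CK3 about as often as for other loci. By level, 21 of 24 loci taken with a mean of 3 to 10 counts in CK1 and CK2 had 0 counts in 5i8d3 (87.5%, against 30.1% of 395 not taken). At 10 to 30 counts these were 29 of 34 (85.3%, against 23.7% of 651), and at 30 counts or more 10 of 12 (83.3%, against 6.34% of 1261).

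The annotated genes behaved alike in 5i8d3 but not in CK3. Of the 52 genes taken in the 4 libraries, 44 (84.6%) had 0 counts in 5i8d3, against 4.04% of all 15266 genes with at least 3 counts in CK1 and CK2, and the other 8 had between 3 and 12 counts. Abundant genes weigh on the 4.04%, as 43 of the 52 genes had a mean of under 30 counts in CK1 and CK2. At 3 to 10 counts, 23 of 29 genes taken (79.3%) had 0 counts in 5i8d3, against 26.2% of 997 not taken, at 10 to 30 counts 13 of 14 (92.9%) against 13.4% of 1280, and at 30 counts or more 8 of 9 (88.9%) against 1.09% of 12937. In CK3, however, only 31 (59.6%) had at least 3 counts, and 19 (36.5%) had none, against 4.35% of the same 15266 genes. These 19 genes had 0 counts in 5i8d3 as well. They were therefore without reads in both libraries outside the paper. The share at 0 in CK3 depended on the level. At a mean of 3 to 10 counts in CK1 and CK2 it was 13 of 29 (44.8%) for the genes taken and 39.1% of 997 for those not taken. At 10 to 30 counts it was 5 of 14 (35.7%) against 14.8% of 1280, and at 30 counts or more 1 of 9 (11.1%) against 0.510% of 12937. CK3 was the library with the fewest counts, and its deviations went with those of 5i8d3 over all features, as given above. The part of either in these values was not tested.

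Each 5i8d library was also left out alone and read with features taken in the other 5 libraries. Of the loci taken, 50 of 75 (66.7%) had 0 counts in 5i8d1, 50 of 80 (62.5%) in 5i8d2 and 50 of 57 (87.7%) in 5i8d3. Over all 2030 loci with at least 3 counts in each CK library these shares were 5.42%, 4.78% and 13.8%. For the genes they were 23 of 49 (46.9%), 23 of 55 (41.8%) and 23 of 31 (74.2%), against 0.536%, 0.466% and 2.35% of all 14367. The 50 loci and 23 genes are the silenced features each time. The shares among the features taken therefore restate the numbers given above without each 5i8d library. Level was not matched in the shares over all loci and genes. The share was highest for 5i8d3 both among the features taken and among all. Where counts were present they were few, with at most 29 counts for a locus and 15 for a gene in 5i8d1, and at most 12 and 6 in 5i8d2.

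Features just inside and just outside the rule had like counts. A lowest CK count of 3 was found for 7 of the 50 loci and 7 of the 23 genes. With a lowest CK count of 2 and 0 counts in every 5i8d library there were 4 more loci and 12 more genes, with mean CK counts of 4.67 to 9 and 2.67 to 6.67. On the other side of the rule, 23 loci and 23 genes had at least 3 counts in each CK library and a single count over the 5i8d libraries. The shortest locus taken had 204 bp.

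Some features outside the rule had a larger measured fold than the lower bound of any feature inside it. These measures are unlike. The measured fold pools the counts of the 5i8d libraries, whereas the bound takes 3 counts in each of them. Which features decreased more is therefore not read from them. Among the 46 loci with 1 to 3 counts over the 5i8d libraries, the locus with the highest mean CK count, of 9112 bp, had 446, 487 and 697 counts in CK1, CK2 and CK3, 2 in 5i8d1 and 0 in 5i8d2 and 5i8d3. It was 1009 times lower in the 5i8d group on the TMM scale (95% exact counting interval 279 to 8336). Among the 60 such genes, a gene of 4968 bp had 976, 770 and 140 counts in the CK libraries and 1 count in 5i8d2, and was 2334 times lower (418 to 92249). Both were chosen after their values were seen. The rule of 0 counts leaves such features out.

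In the paper's 4 libraries, 26 of the 50 loci and 10 of the 23 genes had enough counts for edgeR's quasi-likelihood test across all 18121 features, and each of these 36 was called lower in the 5i8d group at an adjusted p under 0.05. Of all loci tested 17.2% were called lower, and of all genes tested 17.1%. Since the members had to have counts in the CK group and none in the 5i8d group, their calls follow from the choice and nothing is read from them. Without 5i8d1 or without 5i8d2, where the group left with a single library is taken to have the same spread as the other, 18 genes were tested and called in either case, while 30.9% and 31.4% of all genes tested were called lower. DESeq2 called 38 of the 49 loci and 17 of the 22 genes it tested in the 4 libraries, against 11.7% of all loci and 15.9% of all genes.

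The mirror pattern had at least 3 counts in each 5i8d library and 0 in each CK library at the same minimum length. It was held by 269 of the 4441 loci and 356 of the 20484 genes. The features detected in the 5i8d libraries were not counted, so no share beside that of the silenced features is given. A mean of at least 100 counts in their own group was reached by 25 of the 269 loci and 62 of the 356 genes, compared with 2 of the 50 silenced loci and 1 of the 23 silenced genes. The 5i8d libraries together held 108716514 counts and the CK libraries 98310822, and the part of this depth in the numbers was not tested.

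ID numbers ran up to 234937 for the loci and 28894 for the genes. Of the 23 genes, 1 pair had consecutive numbers and 1 more pair lay within 10 of each other. Of the 50 loci, 0 pairs lay within 10 and 2 pairs within 30. How many such pairs a random draw would give was not tested. The genes with consecutive numbers were those of 1343 and 693 bp, of which the former was lower in CK3 (41, 34 and 7 counts) and the latter was not (13, 14 and 14). The other pair of genes, of 3040 and 5102 bp, had its lowest CPM in CK3 in both. The sources used here do not say what order the numbers follow.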

How the data were processed

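RNA of 3 CK and 3 5i8d libraries was analysed. The counts deposited by the authors are whole numbers of reads per feature, and the submitters' processing notes name HTSeq, FastQC 0.10.1 and DESeq2 1.16.1. The deposited FPKM values were made by the authors from these counts. Which aligner and genome build were used, and whether counting used strand, was not given in the sources used here. Reads may therefore be shared by overlapping features. Lengths were computed from count, FPKM and library total and were whole numbers within 1.82e-11 bp for the silenced features. None of the IDs (0) matched the reference gene table. The FPKM table holds 24949 of the 24950 features.

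Members, ID classes and descriptions were chosen with earlier results of these data known. By the rule for named features, the member with the highest mean CPM over the CK libraries in each class was printed with its ID, and the others up to 10 a class by length, because the IDs carry no names. CPM used the library totals, and bounds of folds used 3 counts per 5i8d library and TMM-scaled library sizes. The spread among the CK libraries is not part of these bounds. Counts were fitted with edgeR 4.0.16 in R 4.3.3 (TMM, filterByExpr, quasi-likelihood test, Benjamini-Hochberg adjustment) over CK1, CK2, 5i8d1 and 5i8d2, as in the study's methods, with DESeq2 1.42.0 as an alternative. The fit was tested on simulated data. Descriptions used pandas 2.3.3 and figures matplotlib 3.10.9. The pairing of libraries by number (correlations of 0.42, 0.55 and 0.67 between their deviations) comes from the data only, deviations within a group of 3 sum to 0 and are not independent, and a fit with the number as a block was run as well.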

Additional observations from a re-analysis of the deposited data

How the results depend on the processing

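The number of silenced features followed the minimum count by construction. From at least 10 and at least 30 counts in each CK library there were 23 and 7 loci, and from 1, 5, 10 and 30 counts there were 57, 12, 6 and 2 genes. Allowing 1 count in each 5i8d library gave 52 genes, and the paper's 4 libraries also gave 52. Leaving out each library in turn gave 56 to 80 loci and 30 to 55 genes. With the replicate block, 26 loci and 10 genes were called in the 4 libraries, as without it, and 24 loci and 6 genes in all 6, again as without it. Every silenced feature tested was called in each of these fits, so that the numbers could not show an effect of the block. Over all features tested in the 6 libraries it raised the share called lower from 12.8% to 19.5% of the loci and from 10.9% to 21.3% of the genes. Without the filter on low counts 16 of 23 genes tested were called (12.7% of all genes), and with DESeq2 17 of 22. Without each library in turn 19 to 38 loci of 20 to 38 tested and 7 to 18 genes of 8 to 18 tested were called, while the share called lower ran from 7.26% to 32.5% of all loci and from 6.74% to 31.4% of all genes. The median FPKM of the silenced loci was 1.28 from 30 counts, and that of the silenced genes was 0.109, 0.535, 0.662 and 0.984 from 1, 5, 10 and 30 counts. The share of genes taken in the 4 libraries with 0 counts in 5i8d3 was 92.9% from 10 counts and 100% from 30, over 14 and 8 genes. The depth of the 5i8d libraries limits each member to a bound of its decrease, and the size of that bound also depends on the floor chosen.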
